A study of Mus musculus with 15 samples.

Results

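Primary mouse hippocampal neurons that all received acetate were compared with and without an inhibitor of ACSS2, an enzyme that makes acetyl-CoA from acetate. The comparison took the 8 of 15 libraries whose labels name acetate, 4 with DMSO and 4 with the inhibitor, and every gene row of the count table. The cells came plated from a neuronal culture core and were kept in neurobasal medium with GlutaMAX and B27. After 7 days of differentiation both groups received 5 mM acetate for 24 h, together with 20 µM of the inhibitor, which the labels do not name, or with its vehicle, DMSO diluted into the same medium. The remaining 7 libraries, 4 with DMSO and 3 with the inhibitor, received medium in place of acetate. They enter the fit of all 15 libraries, which tests the same comparison with a shared spread and asks whether the inhibitor difference depended on acetate. The labels do not tell whether the replicates of a group are different cultures or animals, and the p-values then measure only the spread between these libraries, which may be technical.

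ACSS2 is a nucleocytosolic acetyl-CoA synthetase. Its product, acetyl-CoA, is the donor for histone acetylation and a building block of sterols and fatty acids, and in neurons the enzyme is known to be found on chromatin. Neuronal activity calls on a fast set of immediate early genes, many of them transcription factors, whose products in turn act on later genes for synaptic proteins and secreted factors such as BDNF.

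Total gene counts ran from 19688231 to 39234799 per library, and DMSO replicates 1 and 2 were the deepest. Levels below are counts scaled to library size (CPM) with TMM factors of 0.94 to 1.06. They are not divided by transcript length, so levels are compared between libraries and not between genes. The summed CPM of 14 pan-neuronal markers was 9050 to 10400 in the DMSO libraries and 8370 to 9520 in the inhibitor libraries. Glia were present in both groups: 15 astrocyte markers summed to 4950 to 6040 CPM with DMSO and 4270 to 6210 CPM with the inhibitor, and 16 microglial and macrophage markers to 55.4 to 81.6 and 47.7 to 101 CPM. None of these markers was at 0 in all 8 libraries. The first principal component, with 39.5% of the variance, separated the DMSO from the inhibitor libraries. The second, with 22.6%, divided each group: inhibitor replicates 1 and 3 from 2 and 4, and DMSO replicates 1 and 2 from 3 and 4. Replicates of a group differed from each other by a chi-square of 4.95 to 25.9 per gene, above the value of 1 that sampling alone gives. Each was counted as a sample, but this value does not tell separate cultures from separate preparations of 1 culture.

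Of 13996 genes tested, 1201 (8.58%) were higher and 1487 (10.6%) lower with the inhibitor (edgeR quasi-likelihood test, Benjamini-Hochberg adjusted p under 0.05). Counts of called list members below are to be read beside these shares. The changes were mostly small. The median absolute log2 fold of the called genes was 0.36, and 77 of them, 41 higher and 36 lower, passed 1 log2 unit. CPM did not overlap between the groups for 22.5% of all genes tested. With the libraries scaled on the pan-neuronal markers in place of TMM, the same test called 2101 higher and 620 lower, and in a fit of all 15 libraries, in which the biological coefficient of variation was 16.8% against 8.77%, it called 356 higher (2.36% of 15075 genes) and 515 lower (3.42%). The fold also moved with transcript length. Its median was -0.10 in the quintile of genes with the shortest summed exons, of which 20.7% were called lower and 3.74% higher, and 0.09 in the longest quintile, of which 4.03% were called lower and 11.7% higher, beside 0.01 over all genes. Its part in the results below was not tested beyond the fits with length and GC offsets given there.

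The transcript of the targeted enzyme was measured in every library. Acss2 (chr2:155517948-155585724, GRCm38) read 29.4, 28.9, 30.1 and 28.0 CPM with DMSO and 25.7, 23.7, 27.8 and 20.0 CPM with the inhibitor. The groups did not overlap, but the log2 fold of -0.26 ± 0.09 (SE) did not pass the threshold (edgeR adjusted p = 0.0551), and it did pass under DESeq2, with length and GC offsets, without inhibitor replicate 3 and with the replicate numbers as a block. The compound acts on the protein, so this transcript does not check the treatment. Of 18 tested genes of acetate and acetyl-CoA supply, 1 rose (5.56%) and 3 fell (16.7%), beside 8.58% and 10.6% of all genes tested. Slc16a1, which encodes the monocarboxylate transporter MCT1, a carrier of acetate, lactate and ketone bodies, rose from 25.0 ± 1.2 to 36.0 ± 2.48 CPM (SD, n = 4; log2 fold 0.53, edgeR adjusted p = 0.000327). Slc13a5, the sodium-coupled citrate carrier, was at 8.13, 5.95, 5.30 and 3.90 CPM with DMSO and 2.92, 2.39, 3.80 and 2.69 CPM with the inhibitor, a log2 fold of -1.01 (edgeR adjusted p = 0.00461) that lost its call without the 2 deepest DMSO libraries. The falls of Acot7, an acyl-CoA thioesterase (log2 fold -0.29), and of Acat1, the mitochondrial acetoacetyl-CoA thiolase (-0.18), lost their calls without DMSO replicate 2 and in several other fits. Acss1, the mitochondrial acetyl-CoA synthetase, and Acly, the citrate lyase that makes acetyl-CoA in the cytosol, had adjusted p of 0.304 and 0.374 in the same edgeR test.

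The lowest folds among the well-measured genes named belonged to the activity-regulated transcription factors Egr4 and Npas4. Arc, Vgf, Rgs4, Spred3 and Cdkn3 came next, ahead of the factors Nr4a1 and Nr4a3. The promoters of these 4 factors are shown from RefSeq (GRCm38.p6), 5′ to 3′ in the direction of transcription. Each CGTCA or its reverse complement TGACG is in capitals. It is the core of the cAMP response element, through which CREB acts on activity genes.
Egr4 promoter, chr6:85513670-85513789, minus strand: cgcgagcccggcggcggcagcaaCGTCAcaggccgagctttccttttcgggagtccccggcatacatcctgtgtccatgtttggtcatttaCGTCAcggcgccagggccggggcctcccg
Npas4 promoter, chr19:4990052-4990171, minus strand: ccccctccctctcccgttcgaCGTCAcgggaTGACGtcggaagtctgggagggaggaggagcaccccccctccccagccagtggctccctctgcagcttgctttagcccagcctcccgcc
Nr4a1 promoter, chr15:101266726-101266845, plus strand: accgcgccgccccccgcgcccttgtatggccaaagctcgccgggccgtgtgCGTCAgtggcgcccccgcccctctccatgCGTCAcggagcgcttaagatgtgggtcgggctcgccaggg
Nr4a3 promoter, chr4:48045065-48045184, plus strand: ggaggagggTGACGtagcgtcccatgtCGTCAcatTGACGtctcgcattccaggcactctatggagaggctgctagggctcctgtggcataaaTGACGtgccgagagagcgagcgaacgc
The 4 windows hold 2, 2, 2 and 4 matches. On either strand, CGTCA, which is also part of the full element TGACGTCA, was in 8 of 13 promoters (61.5%) found for the activity genes that fell, in 31.5% of promoters of genes tested and in 21% of all 27025 promoters of the same length in the table. CGTCA was also in 32.7% of promoters of all genes called lower and in 30.5% of those called higher, close to the share of genes tested. Among respiratory chain genes that fell it was in 12 of 27 (44.4%). The full element was in 1 of the 13 promoters. Activity genes that did not fall were not counted. A match is a run of letters and does not show binding.

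Egr4, a zinc-finger transcription factor of the EGR family (chr6:85511121-85513589), had the lowest fold of the genes named. It was at 16.9, 15.7, 15.3 and 15.4 CPM with DMSO and at 3.38, 3.37, 2.87 and 2.82 CPM with the inhibitor. The groups lay far apart, the inhibitor libraries holding 19.7% of the DMSO level (log2 fold -2.35 ± 0.10 SE, edgeR adjusted p = 1.34e-08). Npas4, a neuron-specific factor induced by calcium influx (chr19:4984355-4990316), read 17.9, 12.5, 13.6 and 10.5 CPM with DMSO and 4.09, 4.16, 3.71 and 4.68 CPM with the inhibitor. Every inhibitor library was below every DMSO library, at 30.3% of the DMSO mean (log2 fold -1.72 ± 0.15, edgeR adjusted p = 1.15e-05). The orphan nuclear receptors Nr4a1 and Nr4a3 moved alike. Nr4a1 fell from 17.0 ± 1.71 to 7.57 ± 0.978 CPM (log2 fold -1.17, edgeR adjusted p = 1.55e-05). Nr4a3 was at 166, 171, 167 and 170 CPM with DMSO and 79.0, 81.9, 83.8 and 82.1 CPM with the inhibitor, with little spread in either group (log2 fold -1.05 ± 0.06, edgeR adjusted p = 1.71e-07).

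Over the whole list of immediate early transcription factors, 9 of 25 tested genes fell and 5 rose, and the median fold was -0.12. Besides those above, Egr3 fell by 0.92, Maff by 0.80, Junb by 0.63, Ier2 by 0.48 and Ier5 by 0.34 on the log2 scale. The genes that rose were Atf3, a stress-induced factor (1.06), Klf4 (0.92), Myc (0.64), Jun (0.44) and Crem (0.34). Fos, the classic activity marker, did not follow the fallen genes: it read 5.23, 4.54, 5.17 and 6.88 CPM with DMSO and 7.38, 6.51, 9.28 and 5.07 CPM with the inhibitor, in overlapping groups (log2 fold 0.39, edgeR adjusted p = 0.126). Egr1 was at 15.8 ± 4.06 and 12.1 ± 2.02 CPM (log2 fold -0.39, edgeR adjusted p = 0.102). Without DMSO replicate 2, 9 members fell and 2 rose, and in the 15-library fit 5 fell and 1 rose. Klf4 and Atf3 rested on 16 to 64 counts per library.

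**Figure D1:**
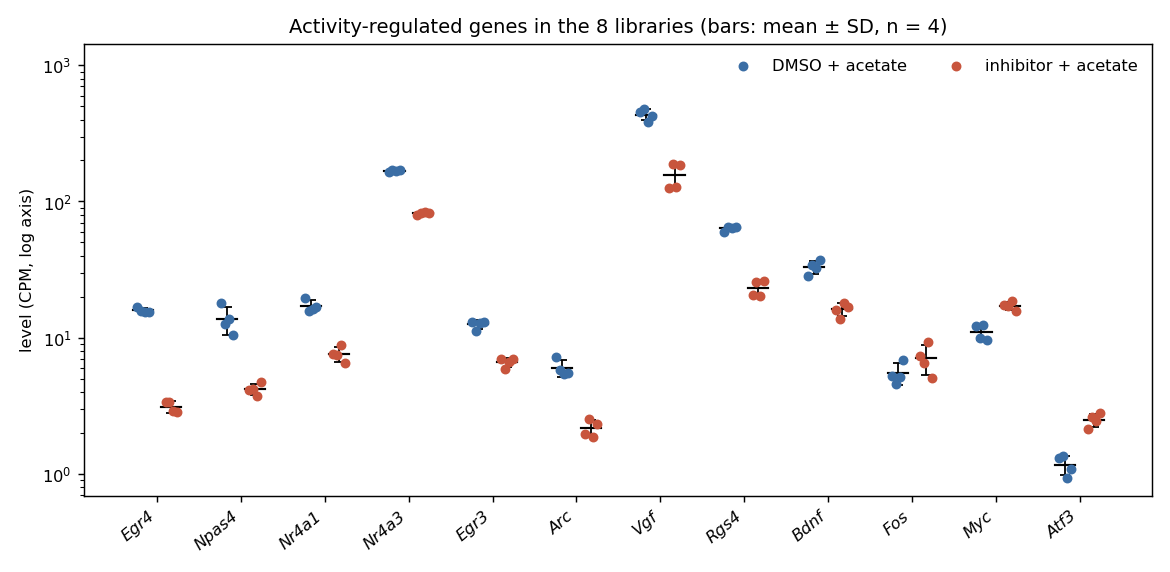
Level in CPM (log axis) of 12 activity-regulated genes in each of the 4 DMSO libraries (blue) and 4 inhibitor libraries (red), all with acetate; bars give the mean and SD. Egr4, Npas4, Nr4a1, Nr4a3, Arc, Vgf, Rgs4 and Bdnf show no overlap between the groups, Fos overlaps, and Myc and Atf3 are higher with the inhibitor.

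Several activity-regulated genes that do not encode transcription factors fell as well. Arc, a cytoskeletal protein that removes AMPA receptors from synapses, read 7.25, 5.82, 5.39 and 5.50 CPM with DMSO and 1.96, 2.53, 1.86 and 2.30 CPM with the inhibitor. All inhibitor libraries were below the lowest DMSO library (35.8% of the DMSO mean, log2 fold -1.48, edgeR adjusted p = 3.00e-05). Vgf, the precursor of secreted neuropeptides (chr5:137026392-137033351), was at 453, 478, 382 and 427 CPM with DMSO and 125, 190, 128 and 186 CPM with the inhibitor. Inhibitor replicates 1 and 3 were the lowest, and the mean was 36.2% of that with DMSO (log2 fold -1.47, edgeR adjusted p = 1.30e-05). Rgs4, a brake on G protein signalling, fell from 63.4 ± 2.87 to 23 ± 3.25 CPM (log2 fold -1.46, edgeR adjusted p = 4.49e-07).

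Bdnf, the neurotrophin that supports synaptic plasticity (chr2:109674700-109727007), read 28.3, 34.2, 32.3 and 36.9 CPM with DMSO and 16, 13.7, 17.9 and 16.8 CPM with the inhibitor. The groups did not overlap and the inhibitor mean was 49.0% of the DMSO mean (log2 fold -1.03 ± 0.10, edgeR adjusted p = 1.95e-05). In the list of activity-regulated effectors, 10 of 28 tested genes fell and 3 rose, with a median of -0.18. The other falls were those of Pcsk1, a prohormone convertase (-0.75), Rgs2 (-0.69), the synaptic organiser Nptx2 (-0.65), Nrn1 (-0.38), Pcdh8 (-0.37) and Gadd45g (-0.29). The list also had members that moved the other way, Plk2 (0.42), Nptx1 (0.40) and Plat (0.38). Counts of effectors that fell stayed between 8 and 11 in all alternatives tried. Among 14 tested neurotrophins and receptors 4 fell and none rose: Bdnf, the p75 receptor gene Ngfr (log2 fold -0.88), the adaptor Shc3 (-0.54) and Ntf3 (-0.49). Ntrk2, the receptor of BDNF, was at 224 ± 12.5 and 227 ± 20.8 CPM.

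Neuropeptide precursors shared the direction, with 9 of 23 tested genes lower and 1 higher (median -0.28, list exons short, at a median of 1634 bases). After Vgf, the lowest were Adcyap1, which encodes PACAP, at 2.45 ± 0.388 CPM with DMSO and 0.977 ± 0.262 CPM with the inhibitor (log2 fold -1.34), Nppc (-0.87) and Pnoc, the precursor of nociceptin (-0.85). Nts, the neurotensin precursor, rose (0.51). With length and GC offsets 7 fell and 2 rose, and in the 15-library fit 2 fell.

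The Ras-MAPK pathway carries growth factor and calcium signals to many of these genes, and its feedback inhibitors are themselves targets of it. Spred3, a Sprouty-related inhibitor of the pathway (chr7:29158829-29170411), was at 112, 107, 92.2 and 94.6 CPM with DMSO and 43.2, 37.3, 43.7 and 47.3 CPM with the inhibitor. No inhibitor library came near the DMSO range (42.2% of the DMSO mean, log2 fold -1.24 ± 0.08, edgeR adjusted p = 9.03e-07). Spry4, another feedback inhibitor, fell from 31.1 ± 3.44 to 18.0 ± 2.49 CPM (log2 fold -0.79, edgeR adjusted p = 0.000251). Rasl11b, a small GTPase of the Ras family (chr5:74195286-74199481), went the other way, from 16.3, 16.9, 14.5 and 12.9 CPM to 30.6, 33.6, 30.9 and 32.2 CPM. Each inhibitor library was far above the highest DMSO library (log2 fold 1.06 ± 0.09, edgeR adjusted p = 5.52e-06). In all, 7 of 23 tested members of this list fell and 2 rose, with a median of 0.00. The other falls were those of Dusp4, Rasl11a, Etv4, Dusp14 and Dusp7 (log2 folds of -0.54 to -0.30), and Dusp1, a phosphatase of stress-activated kinases, rose (0.60). Only 3 or 4 of the 7 fell when any of DMSO replicates 2, 3 and 4 or inhibitor replicates 1 and 2 was left out. Elk1, an ETS factor that the pathway phosphorylates (chrX:20933395-20950608), rose from 47.1, 36.6, 34.6 and 33.0 CPM to 102, 109, 105 and 105 CPM. The inhibitor libraries agreed closely and stood at 277% of the DMSO mean (log2 fold 1.47, edgeR adjusted p = 5.87e-07).

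Enzymes that write and erase histone acetylation had calls in both directions. Of 18 tested deacetylases and sirtuins 4 fell (22.2%) and 2 rose (11.1%), beside 10.6% and 8.58% of all genes tested. Hdac5, a class IIa deacetylase that shuttles out of the nucleus on activity, read 353, 354, 285 and 308 CPM with DMSO and 184, 188, 185 and 179 CPM with the inhibitor. The inhibitor libraries were tightly grouped at 56.6% of the DMSO mean (log2 fold -0.82, edgeR adjusted p = 1.92e-05). Of the same class, Hdac9 fell (log2 fold -0.61) while Hdac4 rose from 88.0 ± 5.83 to 125 ± 4.69 CPM (0.51, edgeR adjusted p = 0.00022). Hdac8 rose (0.38), and the falls of Sirt7 (-0.21) and Sirt3 (-0.20) lost their calls in 6 or more other fits. Of 17 acetyltransferases 2 rose and none fell: Ep300, the coactivator p300, from 18.0 ± 2.22 to 24.3 ± 2.35 CPM (log2 fold 0.44), and Gtf3c4 (0.37). Among 16 bromodomain readers Smarca2 (0.47), Brpf3 (0.35) and Brd1 (0.25) rose and none fell. In the edgeR fit of 15 libraries no acetyltransferase or bromodomain gene was called, while 3 of each were higher and 1 acetyltransferase was lower at an unadjusted p under 0.05. In DESeq2 on the 8 libraries 2 acetyltransferases and 3 bromodomain genes were higher.

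Most structural genes of the synapse did not pass the threshold. Of 38 synaptic vesicle and release genes 2 rose, Syn3 (log2 fold 0.52) and Doc2b (0.38), and 2 fell, Vamp1 (-0.40) and Syt11 (-0.25), which is 5.26% in each direction beside 8.58% and 10.6% of all genes. Of 27 postsynaptic density genes 2 rose, Lrrtm2 (0.43) and Kalrn (0.23), and 2 fell, Baiap2 (-0.42) and Sipa1l1 (-0.21). Snap25, part of the vesicle fusion machinery, was at 284 ± 7.28 and 274 ± 11.3 CPM, and Camk2a, the kinase of the postsynaptic density, at 854 ± 84.4 and 920 ± 27.0 CPM. Among 30 glutamate receptor genes 3 rose, among them Cacng3 (0.55) and Grm7 (0.34), and 3 fell, Grm2 (-0.75), Grin2c (-0.60) and Cnih2 (-0.31). This is 10% in each direction, near the shares of all genes. Potassium channels had 10 falls (24.4%) and 3 rises (7.32%) among 41 tested genes, with a median fold of 0. Kcna4, an A-type channel, fell from 13.0 ± 0.425 to 7.02 ± 1.12 CPM (log2 fold -0.89, edgeR adjusted p = 0.00014), and Kcnn2 (-0.65), the inward rectifier Kcnj4 (-0.57) and Kcna1 (-0.52) were also lower. Kcns2 (0.65), Kcnt1 (0.42) and Kcna6 (0.26) were higher. Prkacb, a catalytic subunit of protein kinase A, rose from 99.1 ± 6.44 to 159 ± 5.16 CPM (log2 fold 0.69, edgeR adjusted p = 1.92e-05).

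Genes of the extracellular matrix that wraps neurons, the perineuronal net, had 4 falls and no rise among 19 tested members (median -0.09). The falls were 21.1% of the members, while 10.6% of all genes tested fell and 8.58% rose. Hapln1, a link protein that holds the net together, read 27.4, 25.8, 25.8 and 29.6 CPM with DMSO and 14.7, 12.8, 15.2 and 18.7 CPM with the inhibitor. Its groups did not overlap (log2 fold -0.82, edgeR adjusted p = 0.000164). Has3, which makes hyaluronan, fell from 4.49 ± 0.511 to 2.28 ± 0.143 CPM (-0.97, edgeR adjusted p = 0.000391), and the proteoglycan genes Acan and Bcan were lower too, by log2 folds of -0.43 each, Bcan losing its call in 7 other fits. At an unadjusted p under 0.05 there were 2 members higher and 6 lower, and DESeq2 called 6 lower and none higher.

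Genes that mark types of neuron had calls in both directions. Of 25 interneuron genes 2 rose (8.0%) and 5 fell (20.0%), beside 8.58% and 10.6% of all genes tested. Dlx1, a homeobox factor of the interneuron lineage, was at 19.0, 15.2, 14.4 and 12.7 CPM with DMSO and 26.3, 29.7, 26.8 and 30.9 CPM with the inhibitor. All inhibitor libraries were above all DMSO libraries (log2 fold 0.88, edgeR adjusted p = 0.000164). Its relative Dlx6 fell (-0.65), as did Dlx6os1 (-0.53), which overlaps it on the opposite strand, so that their reads may be mixed. Reln, the secreted guide of neuron positioning, fell from 40.2 ± 3.67 to 29.8 ± 3.46 CPM (-0.43). Pvalb, the calcium buffer of fast-spiking interneurons, was low, at 1.64 ± 0.455 and 0.758 ± 0.184 CPM (-1.07, edgeR adjusted p = 0.00851). In the scaling of the 15 libraries Pvalb was at 1.73 ± 0.479 and 0.791 ± 0.196 CPM with acetate, and at 12.3 ± 7.16 CPM with DMSO and 12.3 ± 9.17 CPM with the inhibitor without it. Of 29 transcription factors of excitatory neurons 3 rose (10.3%) and 7 fell (24.1%), with Emx1 going from 63.1 ± 5.46 to 43.2 ± 3.81 CPM (-0.55, edgeR adjusted p = 0.000575) and Tbr1 from 18.5 ± 1.64 to 25.6 ± 1.78 CPM (0.46, edgeR adjusted p = 0.00216). Among 49 axon guidance genes 7 rose (14.3%) and 5 fell (10.2%), shares near those of all genes. Sema7a, a membrane-anchored semaphorin, fell from 172 ± 8.34 to 106 ± 8.37 CPM (-0.70, edgeR adjusted p = 3.08e-05). In the 15-library fit 1 interneuron gene rose and 1 fell, 1 excitatory factor rose and 3 fell, and no guidance gene rose while 2 fell.

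Of 20 tested hypoxia targets 4 rose and none fell in edgeR, where 1 was lower at an unadjusted p under 0.05. The rises were 20% of the targets, while 8.58% of all genes tested rose and 10.6% fell. The list as a whole did not rise: its median fold was -0.02, with 10 folds above 0 and 10 below. DESeq2 called 4 targets higher and 1 lower. Ndrg1 read 43.7, 42.0, 43.0 and 39.7 CPM with DMSO and 68.9, 72.0, 67.7 and 66.2 CPM with the inhibitor. Its groups were narrow and apart (log2 fold 0.71 ± 0.06, edgeR adjusted p = 7.59e-06), and Ndrg1 was called in every alternative tried. In the 15-library fit it was the 1 member called. Of 20 clock genes 3 rose (15%) and 1 fell (5%), beside 8.58% and 10.6% of all genes tested. Npas2, a partner of BMAL1, was at 1.44 ± 0.125 and 2.61 ± 0.334 CPM (log2 fold 0.83, edgeR adjusted p = 0.00308).

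**Figure D2:**
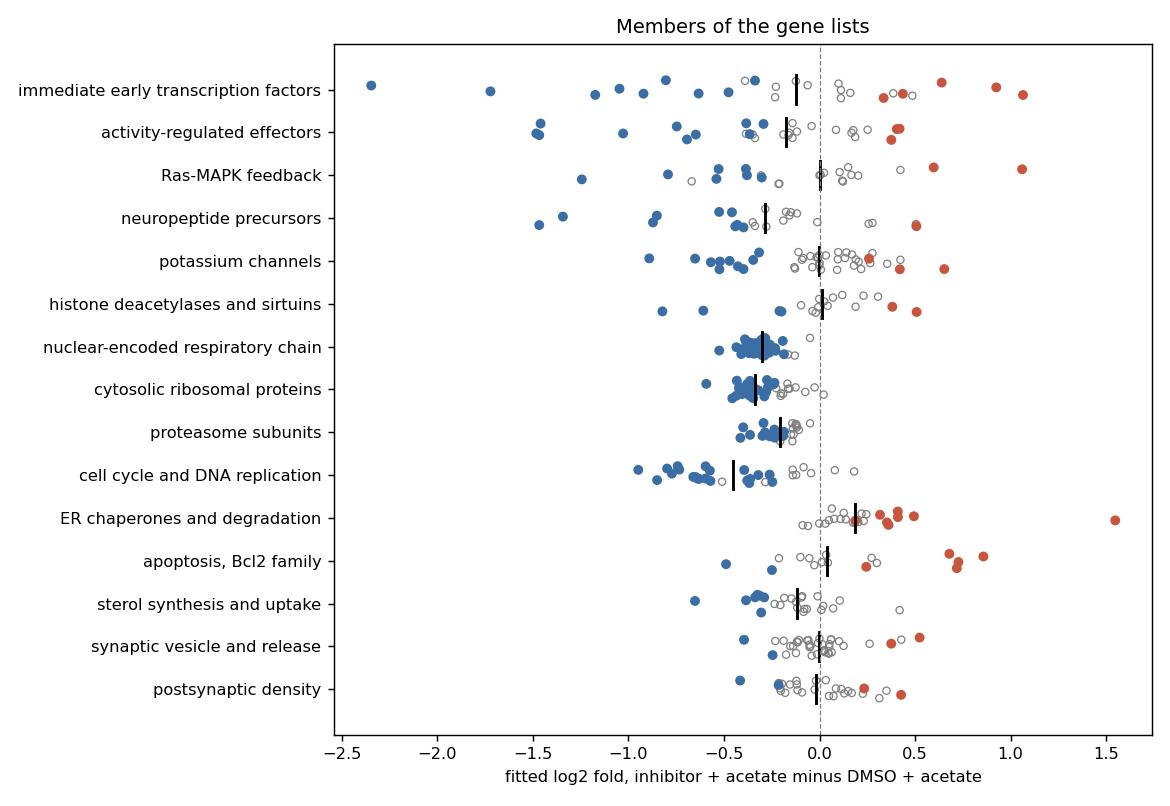
Fitted log2 fold (inhibitor minus DMSO, both with acetate) of every tested member of 15 gene lists, 1 point per gene; filled points passed the threshold (red higher, blue lower), open points did not, and the black bar is the list's median. The respiratory chain, ribosomal protein, proteasome and cell cycle lists hold falls and no rises, and the endoplasmic reticulum list rises and no falls.

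By the naming rule given below, the highest folds went to genes of varied function. Slc44a5, of the choline transporter-like family (chr3:153973436-154271722), was at 13.9, 12, 10.4 and 11.1 CPM with DMSO and 35.2, 32.7, 35.5 and 33.7 CPM with the inhibitor. The inhibitor mean was 287% of the DMSO mean (log2 fold 1.52 ± 0.09, edgeR adjusted p = 2.89e-07). Il34, a ligand of the CSF1 receptor on microglia, rose from 4.86 ± 1.08 to 12.7 ± 0.919 CPM (log2 fold 1.36, edgeR adjusted p = 2.75e-05). Plcxd2, a phospholipase-like protein, rose from 23.9 ± 2.28 to 56.7 ± 3.68 CPM (1.24), and Sh3bp5, an exchange factor for Rab11, from 24.4 ± 2.88 to 53.7 ± 3.38 CPM (1.13). Htr1a, the serotonin receptor 5-HT1A, read 8.77, 7.52, 8.96 and 8.89 CPM with DMSO and 17.9, 17.8, 16.7 and 17.8 CPM with the inhibitor. Its groups were narrow and well apart (log2 fold 1.04, edgeR adjusted p = 5.52e-06). Rnase4 (1.27), Vps13a (1.2), the lysosomal ubiquitin ligase Rnf152 (1.02), Trim66 (1.0), Lpcat1 (0.99) and the imprinted gene Peg3 (0.98) were further members. With Derl3, Elk1, Prkab2 and Rasl11b they complete the 15 highest folds of this rule. Genes with lower average levels, such as Efna1 (1.16) and Atf3 (1.06), lay outside the rule. Rnase4 shares exons with Ang, so its reads may not be its own, and Peg3 lost its call without the 2 deepest DMSO libraries. Ypel5, which had among the smallest p, rose from 34.4 ± 1.63 to 63.4 ± 1.79 CPM (log2 fold 0.88, edgeR adjusted p = 1.05e-06). The 15 lowest folds of the same rule held, besides activity genes, the phosphatase gene Cdkn3 (-1.2) and the adhesion protein gene Amigo2 (-1.10). Lsp1 (-1.03), Ankrd34a (-1.0) and Mfap4 (-1.0) were also among them. Fam131a fell from 271 ± 19.6 to 148 ± 8.69 CPM (-0.87).

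**Figure D3:**
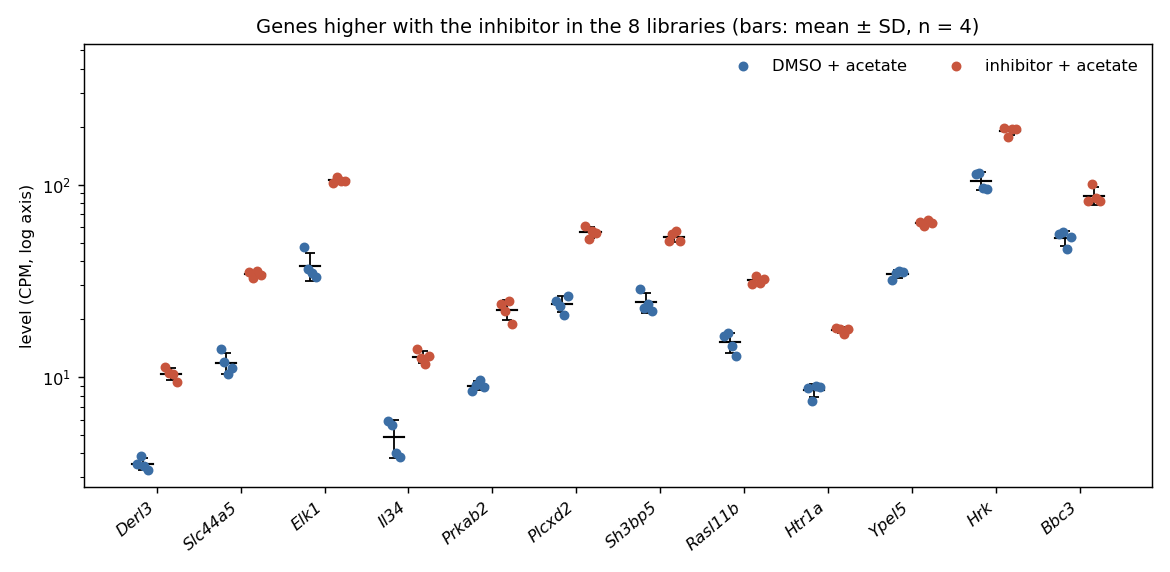
Level in CPM (log axis) of 12 genes that were higher with the inhibitor, in each of the 4 DMSO libraries (blue) and 4 inhibitor libraries (red), all with acetate; bars give the mean and SD. In none of the 12 do the groups overlap.

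Several genes of protein folding and degradation in the endoplasmic reticulum (ER) rose. Among them was Derl3, which had the highest fold of the genes named and encodes a channel component for export of misfolded proteins. The ER stress element, CCAAT and CCACG with 9 bases of any kind between them, was searched on both strands and is shown in capitals in 2 promoters from RefSeq (GRCm38.p6).
Derl3 promoter, chr10:75893218-75893337, plus strand: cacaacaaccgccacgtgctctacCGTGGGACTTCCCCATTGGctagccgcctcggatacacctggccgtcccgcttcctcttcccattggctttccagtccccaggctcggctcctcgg
Hsp90b1 promoter, chr10:86705525-86705674, minus strand: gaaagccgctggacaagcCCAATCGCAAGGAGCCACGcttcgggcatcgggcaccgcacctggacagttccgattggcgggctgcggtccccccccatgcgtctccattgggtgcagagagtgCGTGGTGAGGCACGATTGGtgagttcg
It was present in these 2 of 6 promoters found for the ER genes that rose (33.3%), in 0.153% of promoters of genes tested and in 0.130% of all promoters in the table. Among promoters of all genes called higher it was in 4 of 951 (0.421%). The plain CCAAT box lies within the element and was in all 6 promoters, against 38.8% of those tested and 41.3% of those of genes called higher. ER genes that did not rise were not counted, so the shares may belong to the list and not to the rise.

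Derl3 was at 3.53, 3.86, 3.43 and 3.29 CPM with DMSO and 11.3, 10.5, 10.3 and 9.41 CPM with the inhibitor. The inhibitor libraries stood at 292% of the DMSO mean, without overlap (log2 fold 1.55 ± 0.10, edgeR adjusted p = 8.93e-07). Of 24 tested ER genes 8 rose and none fell, with a median of 0.19. Herpud1, a scaffold of the degradation machinery, rose from 22.9 ± 1.63 to 32.2 ± 2.98 CPM (log2 fold 0.49, edgeR adjusted p = 0.00141), its partner Sel1l from 94.6 ± 7.72 to 126 ± 8.62 CPM (0.41), and the chaperone Hsp90b1 from 423 ± 26 to 562 ± 62.8 CPM (0.41, edgeR adjusted p = 0.00513). Sdf2l1 (0.36), Pdia4 (0.35), Hyou1 (0.32) and Derl1 (0.19) also rose, the last 2 losing their calls in 6 or more other fits. The main chaperone of the compartment, Hspa5, was at 289, 307, 350 and 312 CPM with DMSO and 334, 358, 360 and 425 CPM with the inhibitor. These ranges overlapped and the log2 fold of 0.23 did not pass (edgeR adjusted p = 0.072). Between 6 and 8 members rose with any 1 library left out, 9 with length and GC offsets and 4 in the 15-library fit.

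The related list of the Atf4 stress response had 7 rises and 1 fall among 29 tested genes (median 0.09). The rises were led by Atf3, Aldh1l2, a mitochondrial folate enzyme (0.63), and the arginine carrier Slc7a3 (0.51), and Phgdh of serine synthesis fell (-0.31). Atf4 itself was at 345 ± 13.2 and 328 ± 24.2 CPM. Without the 2 deepest DMSO libraries 4 members rose, and in the 15-library fit 2. In the Bcl2 family, which sets the threshold for apoptosis at mitochondria, 5 of 16 tested genes rose and 2 fell. Hrk, a BH3-only protein of neurons, read 114, 115, 96.2 and 95.1 CPM with DMSO and 196, 177, 194 and 195 CPM with the inhibitor. The groups were well apart (log2 fold 0.86 ± 0.08, edgeR adjusted p = 1.27e-05). The other BH3-only genes called were Bbc3 (log2 fold 0.73), Bid (0.72) and Pmaip1 (0.68), and Bcl2, which protects cells, fell from 12.3 ± 0.858 to 8.77 ± 0.726 CPM (-0.49, edgeR adjusted p = 0.00318). Bcl2l2 rose (0.24) and Bax fell (-0.25), and both lost their calls when any of DMSO replicates 2, 3 and 4 or inhibitor replicates 2, 3 and 4 was left out.

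Transcripts of the respiratory chain, the citric acid cycle, the ribosome and the proteasome were mostly lower, by small amounts. Of 38 nuclear-encoded respiratory chain genes 34 fell and none rose, with folds from -0.52 to -0.05 and a median of -0.30. Cyc1, of complex III, was at 348, 375, 351 and 346 CPM with DMSO and 251, 262, 243 and 232 CPM with the inhibitor. The inhibitor libraries were all below the lowest DMSO library (69.5% of the DMSO mean, log2 fold -0.52, edgeR adjusted p = 0.000191). Atp5d (-0.43), Cycs (-0.41) and Sdhb (-0.34) followed. Of 21 citric acid cycle genes 8 fell, all by 0.34 or less on the log2 scale, among them Sdhb and Suclg1 (-0.31), and none rose. Of 38 cytosolic ribosomal protein genes, many of which have near-identical pseudogenes, 27 fell and none rose (median -0.34), led by Rpl27 (-0.59), Rpl13 (-0.46) and Rps19 (-0.44). Of 27 proteasome subunits 14 fell and none rose (median -0.21), led by Psmb3 (-0.41), Psmb5 (-0.40) and Psmb6 (-0.36).

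These lists hold short transcripts, with median summed exon lengths of 1950 bases for the respiratory chain, 1752 for ribosomal proteins and 2808 for the proteasome, and the shortest quintile of all genes reached 2497 bases. With length and GC offsets 20 respiratory chain genes (median -0.19), 19 ribosomal protein genes (median -0.19), 16 proteasome genes and 11 citric acid cycle genes fell. Without DMSO replicate 2, which had the highest mean level of the first 2 lists, the numbers were 18, 22, 5 and 2, and with scaling on the pan-neuronal markers 13, 21, 4 and 1. No member of the 4 lists rose in these fits. Prkab2, the beta 2 subunit of the energy sensor AMPK (chr3:97658193-97673812), rose from 8.45, 9.09, 9.58 and 8.89 CPM to 24.0, 22.0, 24.8 and 18.8 CPM. All inhibitor libraries were above all DMSO libraries, at 249% of the mean (log2 fold 1.32 ± 0.10, edgeR adjusted p = 2.08e-06). In its list of 13 tested genes 3 rose, Prkab2, the upstream kinase Camkk1 (0.36) and Flcn (0.35), and 3 fell, Camkk2 (-0.24), Stk11 (-0.23) and Prkag1 (-0.22). The catalytic subunit Prkaa1 was at 13.9 ± 0.56 and 14.8 ± 0.72 CPM. Sterol synthesis and uptake, which uses acetyl-CoA, had 7 falls and no rise among 24 tested genes (median -0.12). Mvk, mevalonate kinase, fell from 270 ± 26.5 to 172 ± 18.7 CPM (-0.65, edgeR adjusted p = 0.000391). Without DMSO replicate 2 there were 4 sterol genes lower, with the pan-neuronal scaling 2, and in the 15-library edgeR fit none, where 2 were lower at an unadjusted p under 0.05.

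The culture also held dividing cells, whose transcripts were lower with the inhibitor. Of 30 cell cycle and DNA replication genes 21 fell and none rose, with a median of -0.45. The promoters of 3 of them are shown from RefSeq (GRCm38.p6) with 2 motifs known from late cell cycle genes in capitals, TTTGAA (the CHR element) and CCAAT, each on either strand.
Cdk1 promoter, chr10:69352913-69353032, minus strand: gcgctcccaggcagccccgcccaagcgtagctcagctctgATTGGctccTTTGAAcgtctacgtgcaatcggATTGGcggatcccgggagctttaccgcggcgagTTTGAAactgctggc
Cdc20 promoter, chr4:118437344-118437463, minus strand: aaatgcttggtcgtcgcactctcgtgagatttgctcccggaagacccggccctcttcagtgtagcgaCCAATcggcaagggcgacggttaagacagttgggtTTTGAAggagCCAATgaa
Aurka promoter, chr2:172370571-172370690, minus strand: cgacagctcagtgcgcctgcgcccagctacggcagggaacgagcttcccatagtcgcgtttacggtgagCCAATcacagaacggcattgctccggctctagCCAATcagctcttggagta
Of 19 promoters found for the genes that fell, 11 (57.9%) held TTTGAA and 17 (89.5%) CCAAT, against 11.2% and 38.8% of promoters of genes tested and 18.1% and 37.9% of all promoters. Among promoters of all genes called lower the shares were 14.4% and 42.7%, and among those called higher 10.3% and 41.3%. Cell cycle genes that did not fall were not counted, so the shares may belong to the list and not to the fall. The Aurka window shows CCAAT alone.

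Cdk1, the kinase that drives mitosis, was at 27.7, 29.7, 35.3 and 29.4 CPM with DMSO and 20.8, 17.0, 17.5 and 16.2 CPM with the inhibitor. The groups did not overlap (log2 fold -0.77 ± 0.10, edgeR adjusted p = 0.000173). Ccnb1, its cyclin, read 12.3, 13.3, 15.3 and 14.8 CPM with DMSO and 10.6, 5.94, 6.32 and 5.86 CPM with the inhibitor. Inhibitor replicate 1 lay near the DMSO libraries and the other 3 far below (log2 fold -0.95, edgeR adjusted p = 0.00182). The same library was the highest of its group for Cdc20, Plk1, Aurka, Mki67 and Top2a, and the mean log2 CPM of the list in it, 4.30, lay within the DMSO range of 4.29 to 4.53, against 3.71 to 4.0 in the other 3. Between 11 and 19 members fell with any 1 library left out, the lowest numbers without DMSO replicates 2, 3 or 4 or inhibitor replicates 2 or 4. With length and GC offsets 21 fell, with pan-neuronal scaling 10, and in the 15-library edgeR fit none, where 14 were lower at an unadjusted p under 0.05. At an unadjusted p under 0.05 in the 8 libraries, and in DESeq2, also no respiratory chain, citric acid cycle, ribosomal protein, proteasome, sterol, cell cycle or progenitor gene of these lists was higher, and no ER gene was lower.

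Progenitor markers shared the direction: 7 of 13 fell and none rose (median -0.30). Hes5, a Notch effector of neural stem cells, fell from 34.6 ± 6.10 to 19.4 ± 2.29 CPM (log2 fold -0.84, edgeR adjusted p = 0.000475), and Eomes (-0.93) and Pax6 (-0.40) were lower too. The summed CPM of the 13 markers was 1700 to 1990 with DMSO and 1400 to 1800 with the inhibitor. Astrocyte markers moved beside them: of 14 tested 3 fell, S100b (-0.58) and Agt (-0.62) among them, and none rose in edgeR (median -0.18, 12 of 14 folds negative). At an unadjusted p under 0.05 there were 6 lower and none higher, and DESeq2 called 2 lower and none higher. The mean log2 CPM of the list was 6.90 to 7.18 with DMSO and 6.58 to 7.06 with the inhibitor, overlapping. No member was called without DMSO replicate 2 or 4 or inhibitor replicate 2 or 4, 1 was lower without DMSO replicate 3, and 6 were lower without inhibitor replicate 3. Gfap, the astrocyte filament, was at 2050 ± 241 and 2110 ± 452 CPM, and a score over the non-neuronal markers was 2.2 ± 0.07 and 2.09 ± 0.13 log2 CPM. In bulk libraries such as these, fewer dividing cells and less of these RNAs per cell cannot be told apart. With the score as a covariate 20 cell cycle, 5 progenitor and 2 astrocyte genes fell. The score is itself built in part from the astrocyte markers and holds no progenitor or cell cycle list. That fit therefore does not hold the share of astrocytes or dividing cells equal.

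**Figure D4:**
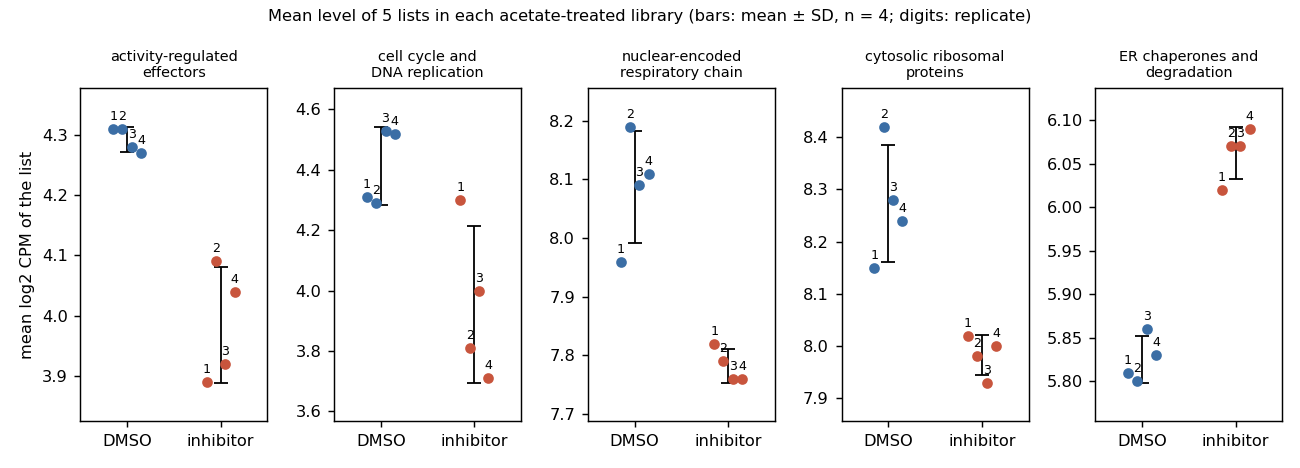
Mean log2 CPM of 5 gene lists in each acetate-treated library, DMSO in blue and inhibitor in red; digits are replicate numbers and bars the mean and SD of 4 libraries. Effector, respiratory chain, ribosomal and ER list means do not overlap between the groups, while inhibitor replicate 1 reaches the DMSO range for the cell cycle list.

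The libraries without acetate share no sample with those above and allow the inhibitor difference to be set beside its counterpart, both from 1 fit of all 15 libraries. Without acetate 523 genes (3.47%) were higher and 300 (1.99%) lower with the inhibitor. The higher genes of both comparisons had 79 in common, 22.2% of the 356 with acetate and 15.1% of the 523 without, and the lower genes 46, 8.93% of 515 and 15.3% of 300. Across 15075 genes, which are not independent, the folds correlated with Pearson r = 0.18 and Spearman rho = 0.14. Egr4, Npas4, Ngfr, Derl3, Elk1, Slc44a5, Il34, Htr1a, Hrk, Bbc3, Rnf152 and Ypel5 were called in the same direction in both. So were Rgs2, Pcsk1, Nrn1, Pcdh8, Hdac9 and Kcna1. For Derl3 the log2 folds were 1.54 with and 1.73 without acetate, for Npas4 -1.73 and -1.57, and for Hrk 0.85 and 1.25. Activity-regulated effectors had 8 falls and 1 rise with acetate (median -0.19), and 7 falls and 1 rise without (median -0.45). Immediate early transcription factors had 5 falls and 1 rise with acetate (median -0.14), and 3 falls and no rise without (median -0.38). Cell cycle genes had no call with acetate (median -0.47), and 6 falls and no rise without (median -0.74). The respiratory chain had 13 falls with acetate in this fit and no call without, where its median was 0.09. Ribosomal proteins had 21 falls and no call, with a median of 0.14 without acetate. No member of either list had a difference of effects past the threshold in edgeR, while 28 respiratory chain and 30 ribosomal protein genes had an unadjusted p under 0.05, each with the lower fold in acetate.

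The difference of the inhibitor effects was tested directly for each gene, and 3 of 15075 (0.0199%) passed (edgeR adjusted p under 0.05), while 3113 had an unadjusted p under 0.05. Rasl11b had log2 folds of 1.05 with and -0.10 without acetate, a difference of 1.15 (edgeR adjusted p = 0.00345). Spred3 had -1.26 and -0.06, a difference of -1.19 (edgeR adjusted p = 0.0151) that lost its call in 6 of the fits that left out 1 library. Sel1l3, a homologue of the ER adaptor gene Sel1l, was the gene called in opposite directions. In the scaling of the 15 libraries it was at 26.2 ± 1.99 with DMSO and 32.1 ± 2.0 CPM with the inhibitor in the acetate libraries, and at 47.6 ± 2.51 and 30.1 ± 2.07 CPM in those without, a difference of 0.95 in log2 fold (edgeR adjusted p = 0.00345). These 3 genes were known from earlier results on these data. Bdnf (-1.04 with and -0.41 without acetate), Vgf (-1.48 and -0.52), Prkab2 (1.30 and 0.09) and Hdac5 (-0.83 and -0.18) had adjusted p of 0.106, 0.0978, 0.0719 and 0.082 for the difference in the same edgeR test. The score over the non-neuronal markers, 2.2 ± 0.07 and 2.09 ± 0.13 log2 CPM with acetate, was 4.21 ± 0.66 with DMSO and 3.50 ± 1.32 with the inhibitor without acetate, where inhibitor replicate 2 stood at 1.99 against 4.11 and 4.4. In the scaling of the 15 libraries Gfap was at 2150 and 2200 CPM with acetate and at 7310 and 7480 CPM without it, DMSO first. The part of this difference in cell content in the comparison of inhibitor effects was not tested. The number called rested on the libraries without acetate, whose groups spread more: it was 1005 without inhibitor replicate 3 of that group, 65 without DMSO replicate 1, 19 without inhibitor replicate 2, and 940 in DESeq2.

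**Figure D5:**
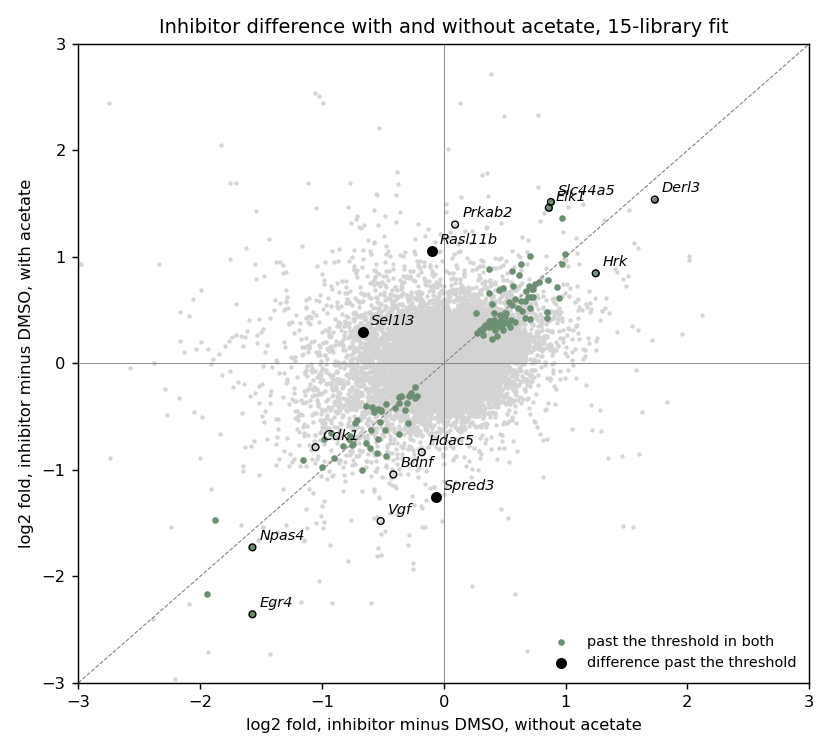
Fitted log2 fold of the inhibitor against DMSO without acetate (horizontal) and with acetate (vertical) for the genes of the 15-library fit, 12 of which fall outside the axes; green points passed the threshold in both comparisons, black points are the 3 genes with a difference of effects, and the dashed line marks equal folds. Derl3 and Npas4 lie close to the dashed line, Egr4 and Hrk farther from it with the same sign in both, and Spred3, Rasl11b and Prkab2 near 0 on the horizontal axis.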

How the data were processed

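The table of raw counts per gene was deposited by the authors as 1 file with a column per library. Per the submitters' processing notes, STAR 2.5.2a, HTSeq 0.6.1p1, DESeq2 and mm10 were used; reads of overlapping or antisense genes may be mixed, with strand setting, counting mode and annotation not given in the sources used here. Summary lines of the counter were dropped. They held 39.3% to 43.1% of the counts of each acetate library, gene and summary lines together. Counts were scaled with TMM, filtered with filterByExpr and fitted per group with edgeR 4.0.16 (glmQLFit, glmQLFTest) on the 8 acetate libraries, with Benjamini-Hochberg adjustment over all 13996 genes at 0.05. The difference of effects came from 15 libraries. DESeq2 1.42.0 was an alternative. Log2 levels used a prior count of 2. On simulated counts of 13937 genes for this comparison the fit recovered 83.6%, 95.5% and 98.4% of genes changed 1.5, 2 and 3 fold, with 14 false calls. Far fewer genes were changed there than were called in the data. The median absolute log2 fold of the called genes, 0.36, is smaller than any fold simulated, so recovery at that size was not tested.

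Genes were named by rule: 15 highest and 15 lowest folds among called genes whose groups did not overlap and whose average log2 CPM reached 2, 5 smallest p in each direction, up to 4 smallest p per list (55 lists), and a few fixed genes. Gm, Rik and LOC symbols, ribosomal protein genes and mitochondrially encoded genes were left out of the rankings by fold and p. Further list members were picked for naming with their values in view. Some list members are not reported here by name. The comparison and lists were chosen with earlier results of these data known. Symbols were matched to GENCODE M21 for coordinates and lengths (24116 of 24498) and to RefSeq promoters (18180); mitochondrially encoded genes were not matched. Replicate numbers were not taken as pairs.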

Additional observations from a re-analysis of the deposited data

Results flagged for a closer look

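In each group of 4 libraries, the gap of the highest or lowest library to its nearest neighbour was divided by the range of the group, and 24 of 502 groups had a library apart by Dixon's 95% limit. Chance gives about 1 in 20 such groups. With DMSO, replicate 1 was apart for Amigo2 (4.20 CPM, the lowest), Gadd45g (42.2 CPM) and Kcnt1 (39.9 CPM). Replicate 2 was apart for Htr1a (7.52 CPM), Gtf3c4 (17.9 CPM), Baiap2 (133 CPM) and Derl1 (57.7 CPM), and for the mean log2 CPM of the lysosome list (6.54) and of GABA receptors (4.95). Replicate 3 was apart for Trim66 (4.68 CPM) and Nptx2 (8.91 CPM), and replicate 4 for Mfap4 (14.5 CPM).

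With the inhibitor, replicate 1 was apart for Ccnb1 (10.6 CPM), and replicate 2 for Hrk (177 CPM). Replicate 3 was apart for Htr1a (16.7 CPM), Baiap2 (77.2 CPM) and Dusp14 (6.98 CPM), and for the mean log2 CPM of Nrf2 targets (6.19), the Bcl2 family (5.28), neurotrophins and receptors (4.31) and oligodendrocyte markers (3.62). Replicate 4 was apart for Acat1 (216 CPM) and for the ER genes Sel1l (138 CPM) and Hsp90b1 (655 CPM), where it was the highest.

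The inhibitor effect with acetate differed from that without acetate by 1.15 in log2 fold for Rasl11b, by 0.95 for Sel1l3 and by -1.19 for Spred3, by the test of the difference itself.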

How the results depend on the processing

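Against 1201 genes higher and 1487 lower, the fit of all 15 libraries called 356 and 515, scaling on the pan-neuronal markers 2101 and 620, and leaving out the 2 deepest libraries, DMSO replicates 1 and 2 (an alternative chosen after seeing the data, as were the length and GC offsets, the thinning of counts and the libraries without acetate left out together), 791 lower. Pan-neuronal scaling moved the median fold of all genes by 0.11. Leaving out each library in turn gave 757 to 1306 higher and 777 to 1451 lower, the lowest numbers without DMSO replicate 2. The other scalings, filters and tools stayed within 1.5 times. For the difference of effects (3 genes) DESeq2 called 940, leaving out DMSO replicate 1 and inhibitor replicate 2 without acetate gave 654, and leaving out each library in turn 2 to 1005. The inhibitor without acetate (823 genes) had 1631 in DESeq2 and 222 to 1630 with 1 library left out. The causes were not tested.

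Same-numbered libraries did not deviate together (correlations of -0.17, 0.28, 0.27 and -0.08), so the numbers were not taken to pair the samples. With the replicate block 1289 genes were higher and 1570 lower with acetate, 524 were called without acetate, and 3 for the difference.

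Of 197 genes named, 97 lost their call in the 15-library fit, 44 without the 2 deepest libraries, and 32 without DMSO replicate 2, and no called gene changed sign. Genes that were not called and lie near 0 did: Atf4 (0.02) and Snap25 (0.04) with pan-neuronal scaling, Ntrk2 with length and GC offsets (-0.09) and without the 2 deepest libraries (-0.03), and Gfap with the non-neuronal score (-0.02) and without the deepest (-0.07). With 1 library left out Ntrk2 ran from -0.05 to 0.05 and Gfap from -0.08 to 0.15. Low counts limit the precision for genes such as Atf3, Klf4 and Eomes.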
